A study of Mus musculus with 4 samples.

Results

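The 6 genes Stat2, Stat3, Stat4, Stat5a, Stat5b and Stat6 encode signal transducers and activators of transcription (STATs). They were chosen by name, matched through their Ensembl identifiers, and are 6 of the 50600 genes counted. Bulk RNA-seq was performed on T-helper 17 (Th17) cells, primary mouse cells of strain C57BL/6NJ. There was 1 group with 4 libraries, labelled as biological replicates 1 to 4, and no second cell type, treatment or time. The labels name 1 donor for all 4 libraries, record the sex as not collected and give the age as unknown. A protocol for differentiating CD4+ T cells is linked, but the cytokines and the culture time are not stated in the labels. The headers of all 4 count tables name their output with "16 hr", a time whose meaning is given nowhere in the labels. The assay is called total RNA-seq while the linked library protocol is named for polyadenylated RNA. No label says whether the replicates came from separate cultures or animals, so p-values and SDs measure only the spread between these libraries, part of which may be technical.

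The libraries held between 24696730 and 37025016 fragments assigned to genes. Xist, the RNA of the inactive X chromosome, was at 186.5 and 160.6 TPM in replicates 1 and 2 and at 0.687 and 0.721 TPM in replicates 3 and 4. Ddx3y, a gene of the Y chromosome, was at 0.442 and 0.446 TPM in replicates 1 and 2 and at 88.6 and 83.2 TPM in replicates 3 and 4. TPM (transcripts per 1000000) is the fragment count divided by the summed exon length of the gene and scaled to 1000000 per library. By Xist and Ddx3y, replicates 1 and 2 therefore show the female pattern and replicates 3 and 4 the male pattern. The libraries thus fall into pairs that a single donor animal would not give, although the labels name 1 donor. Each SD over the 4 libraries spans both patterns, and each STAT gene is given in every library. Against the labelled cell type, all 5 T-cell markers and all 6 Th17 markers reached 1 TPM in each of the 4 libraries. The same held for 44.8% of all 21764 protein-coding genes. Cd4 was at 237.1 ± 16.6 TPM, Il17f at 693.9 ± 73.6 and Il17a at 20.0 ± 1.02 (SD, n = 4). Il23r was the lowest of the Th17 markers, at 2.14 ± 0.154 TPM. Of the CD8 T-cell markers 1 of 3 reached 1 TPM in each library, Cd8b1 at 7.32 ± 1.16 TPM, with Cd8a at 0.101 ± 0.0523. None of the 3 B-cell, 4 myeloid and 3 natural killer markers did. Ms4a1, Lyz2, Ncr1 and Klrb1c had no fragment in any library.

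STAT proteins wait in the cytoplasm in a latent form. A cytokine brings its receptor chains together, Janus kinases bound to the chains phosphorylate them, and the STAT that docks there is phosphorylated, pairs with another STAT and binds DNA in the nucleus. In Th17 cells Stat3, which acts downstream of IL-6, IL-21 and IL-23, is known as the factor required for the lineage. Stat5a and Stat5b, the close relatives activated by IL-2, are known to restrain it. Stat4 serves IL-12 and IL-23, Stat6 serves IL-4 and IL-13, and Stat2 acts in the complex formed after type I interferon with Irf9. A transcript level says nothing of phosphorylation, the step that activates these proteins.

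Stat5a and Stat5b are near copies, and the sequence they share bears on every value given for either. Over an alignment of 2288 coding bases 90.6% were identical, against 58.3% to 65.3% in the other 14 pairs of the 6 genes. Their longest identical coding run was 324 bases over exons 6, 7 and 8 of both genes. The part in exon 7, 152 bases on mm10, is shown because no fragment lying inside it can be assigned to one gene by its sequence:
Stat5a, chr11:100874339-100874490, + strand: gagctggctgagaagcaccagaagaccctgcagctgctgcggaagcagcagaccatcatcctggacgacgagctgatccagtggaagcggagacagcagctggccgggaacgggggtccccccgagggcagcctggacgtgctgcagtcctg
Stat5b, chr11:100798234-100798385, - strand: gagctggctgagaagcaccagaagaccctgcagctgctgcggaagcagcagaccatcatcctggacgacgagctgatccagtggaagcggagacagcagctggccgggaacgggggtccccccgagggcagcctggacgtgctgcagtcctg
No capitals are used, since every base is the same in both.

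When all transcripts were broken into 50-base words, 608 words of Stat5b (11.0% of its words) were also found in Stat5a and in no other gene. Stat5a shared 8.52% of its words, 608 with Stat5b and 23 with Stat3. Words were also matched on the opposite strand, and the 23 shared with Stat3 matched only there. Stat4 shared 21.7% of its words, all 840 with Gm28177, an annotated processed transcript at chr1:52077261-52156087 on the same strand. Gm28177 covers 1033 of the 3872 exon bases of Stat4 (26.7%), and it had 0 fragments in each of the 4 libraries. Stat2 and Stat3 shared 0.788% and 0.555% of their words, and Stat6 shared none. How the authors' counting treated a fragment that fits both genes was not tested.

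All 6 genes were detected, at levels that split into a high and a low set. In bulk samples fewer cells of a type and less RNA per cell cannot be told apart. Stat5a, Stat3, Stat6 and Stat5b lay between 190.9 and 263.2 TPM in every library, and Stat2 and Stat4 between 3.42 and 7.64 TPM. The summed level of the 6 was 899.7 ± 17.3 TPM (SD, n = 4), and Stat2 and Stat4 together made up 1.29% ± 0.0781 of it. In the plot of levels by library the points of each gene lie close together and the sets are more than an order of magnitude apart.

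**Figure D1:**
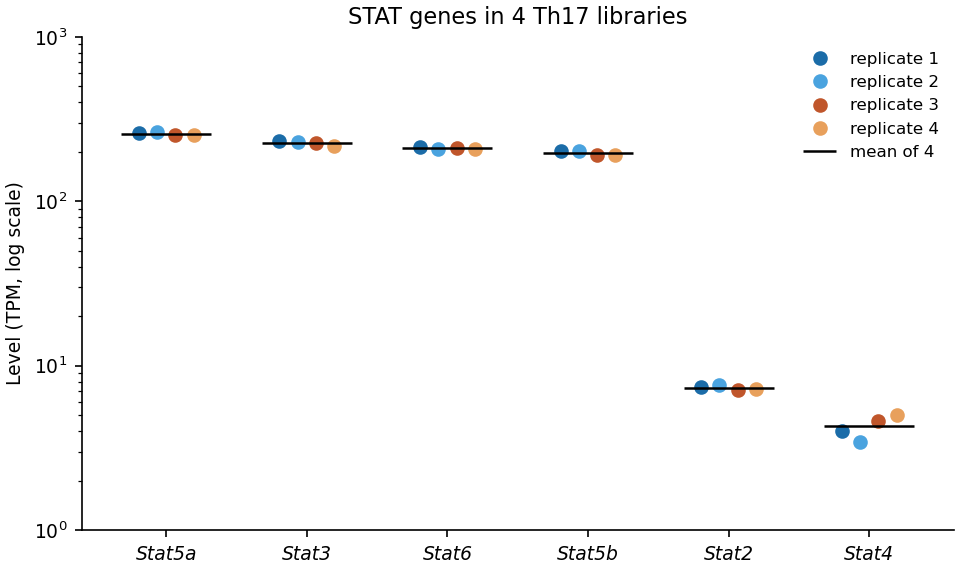
Level of each STAT gene in TPM (log scale) in the 4 Th17 libraries; each point is 1 library and the black line is the mean. Stat5a, Stat3, Stat6 and Stat5b have means from 196.2 to 256.6 TPM, and Stat2 and Stat4 have means of 7.34 and 4.28 TPM.

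Stat5a (ENSMUSG00000004043.14, mm10 chr11:100859351-100885169, + strand) was the highest of the 6. Its level was 259.2, 263.2, 252.8 and 251.1 TPM in replicates 1 to 4, a mean of 256.6 ± 5.64 from 70860 fragments. It ranked 683 by mean level among the 11170 genes that reached 1 TPM in each library, and held 28.5% ± 0.255 of the summed STAT level.

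Stat3 (ENSMUSG00000004040.16, chr11:100885098-100939540, - strand) followed at 230.9, 229.0, 226.5 and 216.1 TPM, a mean of 225.6 ± 6.62 from 83265 fragments. It had the most fragments of the 6 and the longest summed exons, 9527 bases. Replicate 4 was its lowest library. Stat3 ranked 809 and held 25.1% ± 0.350 of the sum.

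Stat6 (ENSMUSG00000002147.18, chr10:127642986-127660957, + strand) was at 212.4, 207.6, 210.0 and 208.8 TPM, a mean of 209.7 ± 2.04 from 35849 fragments. Its libraries lay closest together of the 6 genes in relative terms, with a coefficient of variation of 0.971% against 1.07% from counting error alone. Stat6 ranked 891 of 11170 and held 23.3% ± 0.433 of the summed STAT level.

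Stat5b (ENSMUSG00000020919.11, chr11:100780731-100850724, - strand) was the lowest of the high set, at 201.7, 201.3, 191.0 and 190.9 TPM, a mean of 196.2 ± 6.10 from 42103 fragments. Replicates 1 and 2 were higher than replicates 3 and 4. It ranked 962 and held 21.8% ± 0.306 of the summed level.

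Stat2 (ENSMUSG00000040033.16, chr10:128270559-128292849, + strand) was at 7.42, 7.64, 7.08 and 7.19 TPM, a mean of 7.34 ± 0.250 from 1682 fragments. It ranked 8567 of 11170. Its spread, 3.40%, was under the 4.91% that counting error alone gives.

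Stat4 (ENSMUSG00000062939.11, chr1:51987148-52107189, + strand) was the lowest, at 4.03, 3.42, 4.62 and 5.04 TPM, a mean of 4.28 ± 0.707. These values rest on 170, 97, 173 and 213 fragments. Stat4 ranked 9503 and varied most of the 6, with a coefficient of variation of 16.5% against 8.07% from counting error. Replicates 3 and 4 were above replicates 1 and 2.

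The order Stat5a, Stat3, Stat6, Stat5b, Stat2, Stat4 was the same in all 4 libraries, so each of the 15 pairs had 1 direction throughout. An exact two-sided sign-flip permutation test over 4 libraries cannot go below p = 0.125, which each pair reached (0.125 after Benjamini-Hochberg adjustment over the 15 pairs), so no pair could pass the 0.05 threshold. Differences between neighbours are given on the log2(TPM + 1) scale. Stat5a exceeded Stat3 by 0.18 ± 0.03, Stat3 exceeded Stat6 by 0.10 ± 0.04, and Stat6 exceeded Stat5b by 0.10 ± 0.04 (SD, n = 4). Each of these steps was larger than its SD and had the same direction in 4 of 4 libraries. Across libraries the levels came close, with Stat3 at 216.1 TPM in replicate 4 and Stat6 at 212.4 TPM in replicate 1. The step from Stat5b to Stat2 was 4.56 ± 0.02, a ratio of 26.8 ± 0.384 in TPM. Stat2 exceeded Stat4 by 0.67 ± 0.24, a ratio that ran from 1.43 in replicate 4 to 2.24 in replicate 2.

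Levels within the high set moved with the gene length used. Stat5a has 7133 summed exon bases but a longest annotated transcript of 3958, while Stat5b has 5539 and 5213. The ratio of Stat5a to Stat5b was 1.31 ± 0.0166 with summed exons and 2.22 ± 0.0282 with the longest transcript (TPM, n = 4). With the longest transcripts Stat5a was at 365.6 TPM, Stat3 at 281.3, Stat6 at 193.4, Stat5b at 164.9, Stat2 at 7.82 and Stat4 at 4.39, the same order. Lengths cut by the share of shared 50-base words, a choice made after seeing the data, put Stat5b (220.4 TPM) above Stat6 (209.7 TPM) in all 4 libraries, a difference of Stat6 minus Stat5b of -0.07 ± 0.04 on the log2 scale. The same cut put Stat5a at 280.4 TPM and Stat4 at 5.46 TPM. Stat3 then exceeded Stat5b by only 0.04 ± 0.03 on the log2 scale, against 0.20 ± 0.03 with summed exons. The step from Stat2 to Stat4 fell from 0.67 ± 0.24 to 0.39 ± 0.25, and that from Stat5a to Stat3 grew from 0.18 ± 0.03 to 0.30 ± 0.03. The cut assumes that no fragment from a shared word was counted, also for words that matched only on the opposite strand. The plot of 3 gene lengths shows these shifts beside the gap to Stat2 and Stat4, which every length kept.

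**Figure D2:**
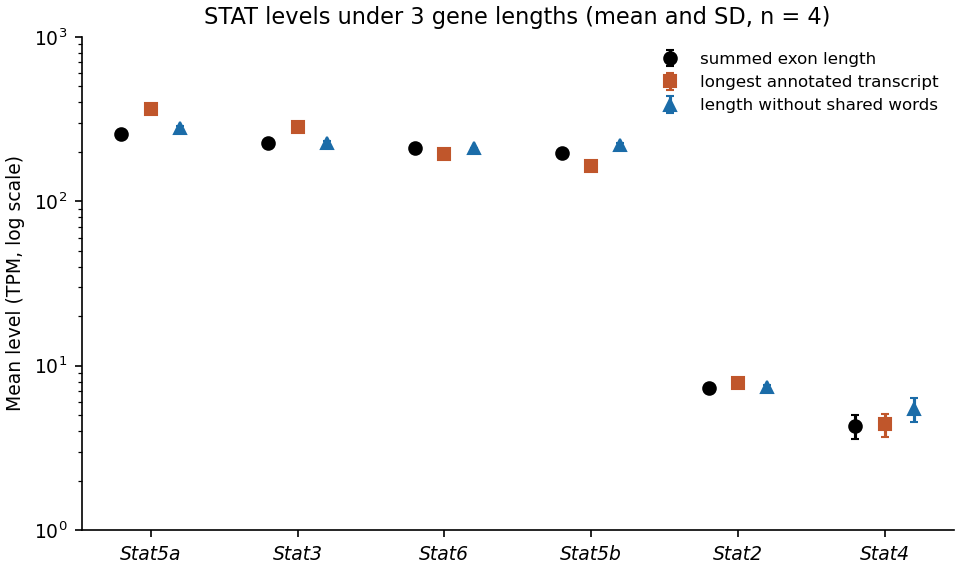
Mean level in TPM (log scale, error bars SD, n = 4 libraries) of each STAT gene with the summed exon length, the longest annotated transcript and the length without shared 50-base words. Stat5a moves from 256.6 to 365.6 TPM with the longest transcript, and Stat5b rises from 196.2 to 220.4 TPM without shared words.

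The coefficient of variation between replicates ran from 0.971% for Stat6 to 3.40% for Stat2 in 5 of the genes and was 16.5% for Stat4. An edgeR quasi-likelihood fit asked whether a gene varied between the libraries more than genes of its abundance do. Of 11847 genes tested 36 were called at an adjusted p under 0.05 (0.304%), and 674 had an unadjusted p under 0.05. None of the 6 STAT genes was called by edgeR, and none had an unadjusted p under 0.05. Stat4 came closest, with a spread 1.92 times the trend for its abundance (unadjusted p = 0.152, adjusted p = 0.986 by edgeR). The spread of Stat5b was 1.13 times the trend, that of Stat3 0.889 times and that of Stat5a 0.701 times. Stat2 stood at 0.251 times and Stat6 at 0.0107 times, the least of the 6. With limma-trend, with DESeq2 size factors and under the other 8 alternatives, none of the 6 genes was called either.

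**Figure D3:**
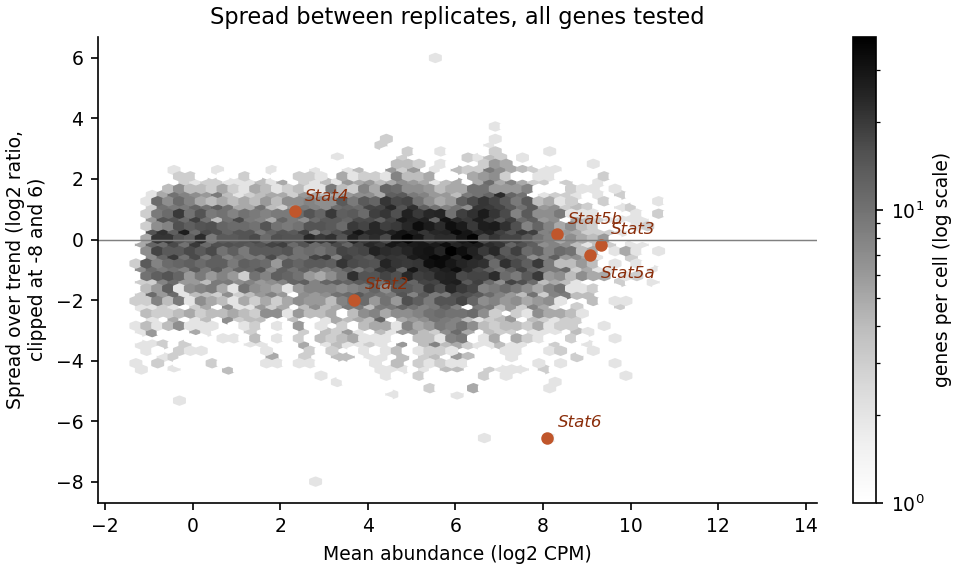
Spread between the 4 libraries relative to the trend for genes of like abundance (log2 ratio, extreme values drawn at the ends of the axis) against mean abundance (log2 of counts scaled to 1000000, CPM), with all 11847 genes tested as grey cells and the STAT genes as orange points. Stat4 lies above the trend, at 1.92 times its value, and Stat6 far under it, at 0.0107 times.

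The replicates were also set side by side in the pairs that Xist and Ddx3y mark. Stat5a, Stat3, Stat5b and Stat2 were higher in both of replicates 1 and 2 than in both of replicates 3 and 4, and Stat4 was lower. Stat6 overlapped. This separation, 5 of 6 STAT genes, was also found in 4145 of the 11847 genes tested (35.0%). With only 4 libraries it arises often from ordering alone, and the 6 genes share the scaling of each library. No conclusion is therefore drawn from the count of 5. For Stat5b the pairs were at 201.7 and 201.3 against 191.0 and 190.9 TPM, with Xist at 186.5 and 160.6 against 0.687 and 0.721 TPM. The part that sex, or anything else that separates these pairs, has in the STAT differences was not tested. The plot of each library as a percentage of the gene's mean shows how far the pairs stand apart beside counting error.

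**Figure D4:**
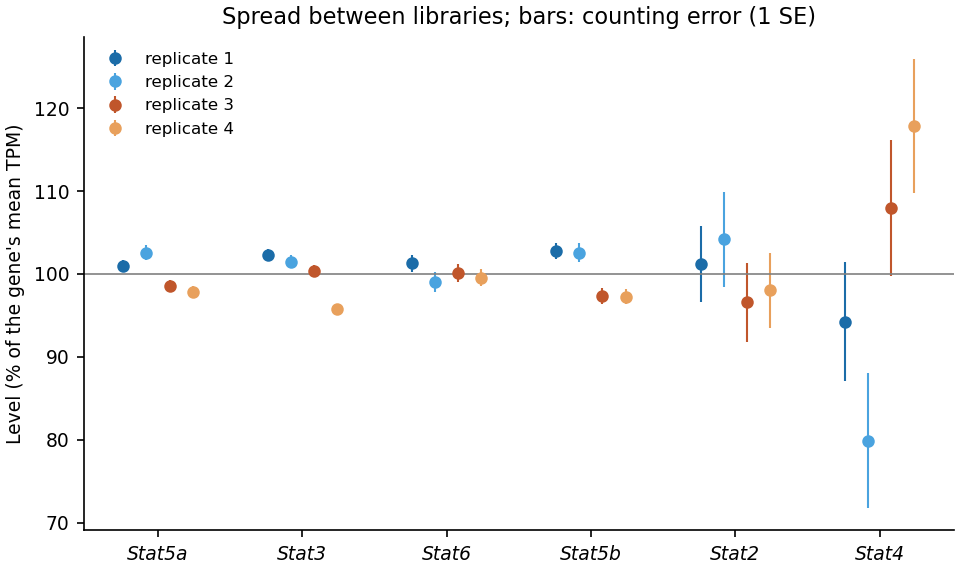
Level of each STAT gene in each library as a percentage of the gene's mean TPM, with bars of 1 standard error from counting alone. The points of Stat6 lie between 207.6 and 212.4 TPM, while Stat4 spreads from 3.42 TPM in replicate 2 to 5.04 TPM in replicate 4.

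On the genome the high-set genes Stat5b, Stat5a and Stat3 lie side by side on chromosome 11. Stat5b and Stat5a are divergent with 8626 bases between them, and the ends of Stat5a and Stat3 overlap by 72 bases on opposite strands. The counting used strand, so such fragments are separable by direction. Stat6 and Stat2 are both on chromosome 10, 609601 bases apart and on the same strand, with mean levels of 209.7 and 7.34 TPM.

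Promoter windows of 300 bases, from 250 before to 50 after a RefSeq transcription start on GRCm38.p6, were available as 9 windows for the 6 genes. The STAT dimer motif TTCNNNGAA, which reads the same on both strands, was in 0 of the 9, against 8.30% of all 32851 windows. The core of the interferon-stimulated response element, the site bound by the Stat2 complex, was searched on both strands as TTTCNNTTTC. It was in 2 of the 9 windows, against 3.44% of all windows. Both hits were in the low set, 1 in Stat2 and 1 at an inner start of Stat4. They are shown with their surroundings, the motif in capitals, each 5′ to 3′ on the strand of the gene. The motif begins 222 bases before the start of Stat2, and it lies on the opposite strand 97 bases before the start of Stat4:
Stat2, chr10:128270248-128270315: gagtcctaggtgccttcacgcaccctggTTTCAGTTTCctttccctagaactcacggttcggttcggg
Stat4, chr1:52008113-52008182: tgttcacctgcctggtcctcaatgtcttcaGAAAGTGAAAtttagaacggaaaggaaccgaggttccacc
A match is a description of these letters and not of binding. An inner start of Stat5b and 1 of Stat5a share a stretch of 55 bases just before the start with 49 identical (89.1%), the best local match among 33 pairs of windows from different STAT genes.

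The genes around the STATs are given by lists, to place each STAT beside its receptors and targets. Over the 95 distinct genes of the lists, 72 reached 1 TPM in each library (75.8%) and 59 reached 10 TPM (62.1%), against 44.8% and 33.9% of all 21764 protein-coding genes. At 100 TPM it was 34 of the 95 (35.8%), against 8.72% of all protein-coding genes. The median of the listed genes was 27.0 TPM, against 0.275 for all protein-coding genes. The lists were chosen with earlier results of these data known, so these comparisons with all protein-coding genes are descriptions and not tests. Of the 74 listed genes tested for spread, 2 were called, against 0.304% of all 11847 genes tested.

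Around Stat3, 8 of 12 receptor genes reached 1 TPM in every library. The shared chain Il6st, which pairs with the IL-6 receptor, was at 217.8 ± 5.67 TPM, Il12rb1, a chain of the IL-23 receptor, at 173.0 ± 5.10 and Il27ra at 161.1 ± 7.78. Lepr, the leptin receptor, had no fragment, so that a level of up to 0.0581 TPM (3 fragments in the library with the fewest) is possible. All 14 Stat3 targets reached 1 TPM and 9 of them 100 TPM, with a median of 268.5 TPM, beside 225.6 TPM for Stat3 itself. Irf4, a factor needed for Th17 cells, was at 1647.2 ± 43.8 TPM, Il17f at 693.9 ± 73.6 and Junb, an AP-1 subunit, at 630.7 ± 35.1. The lowest was Il23r at 2.14 ± 0.154 TPM. Il17f and Fosl2 were the listed genes called for spread (adjusted p = 0.00785 and 0.0148 by edgeR). Il17f was lowest in replicate 3, 589.1 TPM, and highest in replicate 4, 759.3 TPM, while Stat3 was at 226.5 and 216.1 TPM in those libraries. Fosl2 was highest in replicate 2, at 61.5 TPM, and at 49.4 to 53.0 TPM in the others.

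Around Stat5a and Stat5b, 5 of 6 receptor genes reached 1 TPM. Of the IL-2 receptor chains, Il2ra was at 1189.0 ± 11.5 TPM and Il2rb at 825.9 ± 44.7. Il2rg, the chain shared by several cytokine receptors, was at 290.2 ± 5.04 TPM, beside 256.6 TPM for Stat5a and 196.2 TPM for Stat5b. Il9r had 4 fragments in all, 0.0203 TPM. All 10 targets reached 1 TPM and 6 reached 100 TPM. Besides Il2ra, the highest were Lta, a cytokine of the tumour necrosis factor family, at 1529.9 ± 82.0 TPM and Ccnd2, a D-type cyclin, at 548.7 ± 19.6. Socs2 was lowest, at 1.36 ± 0.225 TPM.

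Around Stat6, Il2rg and the IL-4 receptor chain Il4ra (165.7 ± 8.25 TPM) were present, and Il13ra1 was at 0.0626 ± 0.0582 TPM from 10 fragments. Of 9 Stat6 targets 5 reached 1 TPM, with a median of 1.54 TPM beside 209.7 TPM for Stat6. The receptors Ccr8 and Ccr4 were at 391.7 ± 25.7 and 30.7 ± 2.04 TPM. Il5, a cytokine of T-helper 2 cells, had no fragment, which allows up to 0.266 TPM.

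Around Stat4, Il12rb1 was the single receptor gene of 5 above 10 TPM. Il12rb2, the chain that docks Stat4 after IL-12, was at 2.59 ± 0.340 TPM and Il23r at 2.14 ± 0.154, beside 4.28 TPM for Stat4. Il18rap was lowest, at 0.750 ± 0.143 TPM. It and Il18r1 are chains of the IL-18 receptor, which signals through MyD88 and not a STAT. Of 6 targets 3 reached 1 TPM. Hopx was at 16.6 ± 0.676 TPM, Tbx21, the T-helper 1 factor, at 6.65 ± 0.881 and Il12rb2 as above. Ifng had 2 fragments, both in replicate 4.

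Around Stat2, Ifnar2 and Ifnar1, the chains of the type I interferon receptor, were at 23.4 ± 1.58 and 17.8 ± 0.427 TPM and Il10rb at 8.94 ± 0.454. Ifnlr1 had no fragment, which allows up to 0.0979 TPM. Of 12 interferon-induced targets 3 reached 1 TPM, with a median of 0.184 TPM beside 7.34 TPM for Stat2. Bst2, an antiviral membrane protein, was at 226.5 ± 3.29 TPM, Irf9 at 16.8 ± 0.668 and Isg15 at 1.47 ± 0.402. Ifi44 had no fragment, which allows up to 0.0668 TPM. Target medians were above 100 TPM for Stat3 and the Stat5 genes and under 2 TPM for Stat4, Stat2 and Stat6. These medians depend on which genes were listed, and the lists were chosen with earlier results of these data known. The Stat3 list holds Th17 markers such as Il17a and Il17f, so a high median there is no measure of Stat3 activity. The lists are not independent of one another, since Il23r, Il2ra, Pim1 and others stand in more than 1 list, and the differences between lists were not tested.

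**Figure D5:**
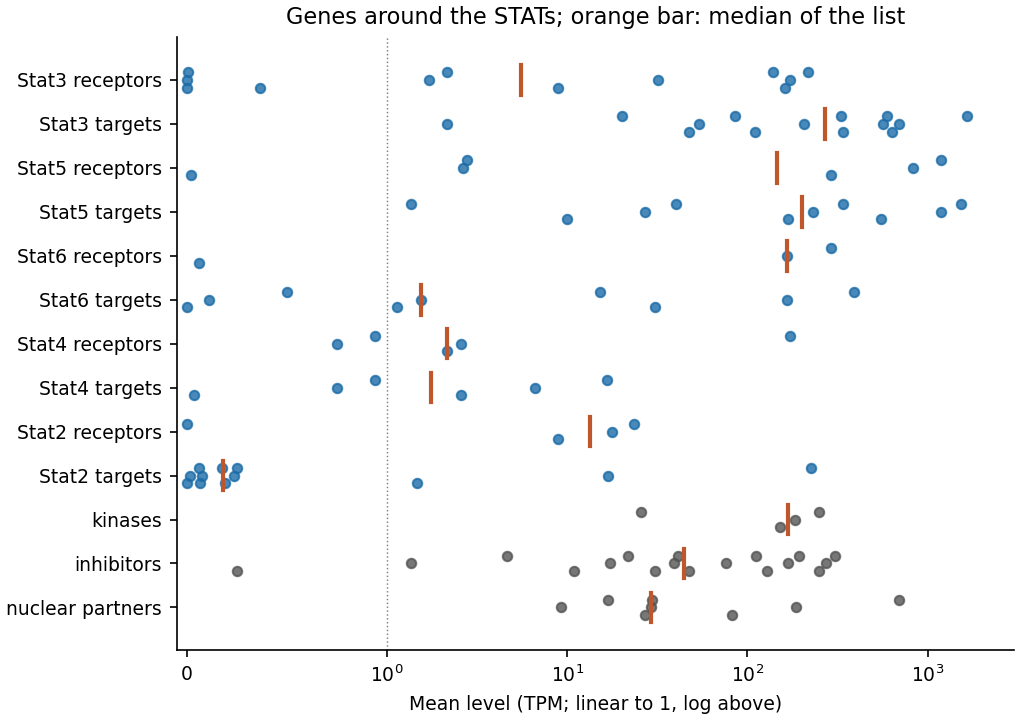
Mean level in TPM (linear to 1, log above) of each gene in the lists of receptors and targets of each STAT, the kinases, the inhibitors and the nuclear partners, with 1 point for each gene and an orange bar at the median of the list. The Stat3 targets have a median of 268.5 TPM and the Stat2 targets one of 0.184 TPM.

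All 4 Janus kinases, which phosphorylate the STATs, were at 10 TPM or more. Jak2 was at 249.1 ± 8.37 TPM, Jak3 at 183.0 ± 3.12, Jak1 at 151.3 ± 5.72 and Tyk2 at 25.8 ± 1.46. Jak3 serves the receptors that carry Il2rg, and Tyk2 serves those of IL-12, IL-23 and type I interferon. Of 18 inhibitor genes 17 reached 1 TPM and 7 reached 100 TPM. The phosphatase genes Ptprc, Ptpn6 and Ptpn1 were highest, at 305.2 ± 12.6, 271.5 ± 10.04 and 248.0 ± 4.39 TPM. Usp18, an inhibitor of type I interferon signalling, was lowest at 0.252 ± 0.142 TPM. All 8 nuclear partners reached 1 TPM. The importins Kpnb1, Kpna3 and Kpna1 were at 691.1 ± 10.5, 185.6 ± 2.29 and 81.6 ± 3.67 TPM, and Nmi was lowest at 9.30 ± 0.438.

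The genes most like each STAT over the 4 libraries were found by the root mean square difference in log2(TPM + 1) among 21757 protein-coding genes. Stat5a was nearest to Arpc4 (0.0107), Senp3 (0.0162) and Acsl5 (0.0182). Arpc4, a subunit of the actin-branching Arp2/3 complex, was at 258.5, 260.5, 251.3 and 248.9 TPM in replicates 1 to 4. Stat3 was nearest to Cdc42se1 (0.0200), Atad3a (0.0207) and Map2k3 (0.0225). Stat6 was nearest to Suz12 (0.0134), Qdpr (0.0206) and Slc38a1 (0.0211), and Stat5b to Txnrd1 (0.0212), Rrn3 (0.0320) and Grk6 (0.0343). Stat2 was nearest to Heatr5a (0.0187) and Sh3pxd2a (0.0266). For Stat4 the nearest genes were Ncapg (0.0817), Gm8369 (0.0920) and Slc25a42 (0.0922), farther away than for any other STAT gene. The measure is mostly one of equal level over 4 libraries, and no STAT gene was the nearest of another, since the family was left out of the candidates.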

How the data were processed

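RNA-seq of 4 Th17 libraries was analysed from gene tables that hold raw fragment counts. Per the file headers, the authors made these counts with featureCounts 1.4.6-p4 for fragments with both ends aligned, counted on the reverse strand, over exons of GENCODE vM13 on mm10; settings of the alignment step were not given in the sources used here. Those deposited tables also hold the summed exon length of each gene, the other unit used. TPM was computed from count and length. Symbols came from GENCODE vM21, which matched 50376 of 50600 genes. The shallowest library had 24696730 fragments. Limits for genes without a fragment, where a count of 0 allows 3 fragments, and the bars drawn from counting cover counting error only. Values after ± are SDs between libraries. Spread between libraries was tested with edgeR 4.0.16 (intercept-only quasi-likelihood fit, TMM, filter on low counts with a minimum of 10, robust prior, upper tail, Benjamini-Hochberg adjustment), checked on simulated data, with limma 3.58.1 and DESeq2 1.42.0 size factors as alternatives. Pairs of STAT genes were compared with an exact sign-flip permutation test on log2(TPM + 1), pseudocount 1. Sequence words, coding alignments and exons came from GENCODE vM21 transcripts, promoters from RefSeq. Named genes were all 6 STAT genes, the 3 highest and the lowest gene of each list, every gene called for spread, all kinases and the 3 nearest genes of each STAT (1 of them is not reported here); the cell markers, Xist, Ddx3y, Il17a, Il18r1, Pim1 and Gm28177 were named after their values were seen. The members and lists were chosen with earlier results of these data known.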

Additional observations from a re-analysis of the deposited data

How the results depend on the processing

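The order of the 6 STAT genes, counted as pairs with 1 direction in every library, was 15 of 15 pairs without each replicate in turn and with the longest transcript as length. Without any gene length (log2 CPM) 2 pairs turned, Stat5a minus Stat3 at -0.23 and Stat6 minus Stat5b at -0.23, and with lengths free of shared 50-base words Stat6 minus Stat5b was -0.0711; these follow from the lengths used. Of 135 pair values under alternatives, these 3 were reversed and 132 kept their direction. Levels moved beyond 1 SD with the longest transcript (Stat5a 365.6, Stat3 281.3, Stat6 193.4, Stat5b 164.9 and Stat2 7.82 TPM), without mitochondrial and ribosomal RNA genes (Stat5a 262.9 and Stat6 215.0 TPM), and without shared words (Stat5a 280.4, Stat5b 220.4 and Stat4 5.46 TPM). Leaving out 1 replicate gave 254.3 to 258.4 TPM for Stat5a, 223.9 to 228.8 for Stat3, 208.8 to 210.4 for Stat6, 194.4 to 198.0 for Stat5b, 7.23 to 7.42 for Stat2 and 4.02 to 4.57 for Stat4. The count of genes called for spread, 36, became 94 with all genes that had a fragment (20704 tested) and 17 without the robust prior, where the cause was not tested, and ran from 15 (without replicate 4) to 37 without 1 replicate. No STAT gene was called in any of these fits, and a detection level of 0.5 TPM raised the listed genes detected from 72 to 75. No paired analysis was possible because there is 1 group and no second one whose replicates could be matched; pairs of STAT genes were compared within each library. Depth limits Stat4 most, at 97 fragments in replicate 2.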
